A study of Mus musculus with 8 samples.

Results

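The genes described here are 8 mouse genes of the acute phase and of protease inhibition, among 28956 genes in the count tables of the series. They are Saa3, Lcn2, Hp, Il1rn, Serpina3c, Serpina3f, Serpina3g and Serpina3n, and they were taken by name. Non-haematopoietic bone cells were studied by droplet scRNA-seq with the 10x Chromium 3' kit, which counts unique molecular identifiers (UMIs), in bone that was repairing a fracture and in unfractured bone. All mice were C57BL/6 females aged 12 weeks at collection. Control mice (2 preparations) were wild-type and unfractured. Fracture mice (2 preparations) had the left leg broken at 10 weeks by three-point bending, stabilised with an intramedullary nail, and were killed on day 14. Every preparation had been depleted of blood lineage cells with beads before loading and was run as 2 libraries, which were summed. The labels do not say whether preparations came from separate animals, so p-values measure only the spread between preparations.

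The acute phase response is the rapid change in secreted proteins that follows tissue injury, classically in the liver under interleukin-6, interleukin-1 and the transcription factors C/EBP, STAT3 and NF-kB. Saa3 encodes a serum amyloid A made outside the liver, Lcn2 encodes lipocalin 2, which binds iron-carrying siderophores and is abundant in neutrophil granules, and Hp encodes haptoglobin, which binds free haemoglobin. Il1rn encodes the interleukin-1 receptor antagonist, which occupies the receptor without signalling. The Serpina3 genes are mouse paralogues of human SERPINA3 (antichymotrypsin), secreted or intracellular inhibitors that trap their target proteases, and they lie side by side on 1 chromosome.

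In GRCm38, with GENCODE M21 annotation, the 4 paralogues were at chr12:104146382-104153870 (Serpina3c, minus strand), chr12:104214544-104221129 (Serpina3f, plus strand), chr12:104236245-104241939 (Serpina3g, plus strand) and chr12:104406729-104414329 (Serpina3n, plus strand). Il1rn was at chr2:24336853-24351494 (plus strand), Lcn2 at chr2:32384633-32388252 (minus strand), Saa3 at chr7:46711998-46715700 (minus strand) and Hp at chr8:109575128-109579172 (minus strand). All 8 are protein coding. Stretches of 60 bases within the last 500 bases of each transcript, where the 3' reads fall, were compared with all other transcripts. Serpina3g shared 60 of these bases (12%) with Serpina3f, and Saa3 shared 105 bases (21%) with a repeat found in many genes. A read lying wholly within such a stretch could not be assigned to 1 gene by sequence, whereas a longer read could reach other bases. The other 6 genes shared none.

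The upstream sequence of 5 genes is printed because Saa3 rose below and because Serpina3n was distributed unlike its 3 close paralogues. Each line is RefSeq sequence of GRCm38.p6, 5' to 3' on the strand of the gene, from 250 to 51 bases before the annotated start. Capitals mark matches, on either strand, to C/EBP (TTGCNNAA), NF-kB (GGG, 2 free bases, then TTTCC), STAT (TTCNNNGAA) or IRF (GAAA, 2 free bases, then GAAA) letters, and no printed match overlaps another.
Saa3, chr7:46715727-46715926, minus strand: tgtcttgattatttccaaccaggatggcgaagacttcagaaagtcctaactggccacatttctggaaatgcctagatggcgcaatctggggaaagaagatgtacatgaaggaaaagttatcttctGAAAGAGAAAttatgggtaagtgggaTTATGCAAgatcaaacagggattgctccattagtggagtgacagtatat
Serpina3c, chr12:104153923-104154122, minus strand: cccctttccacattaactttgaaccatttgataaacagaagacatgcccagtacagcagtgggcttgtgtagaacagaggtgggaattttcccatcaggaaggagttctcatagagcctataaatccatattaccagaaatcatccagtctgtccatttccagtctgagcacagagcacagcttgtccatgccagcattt
Serpina3n, chr12:104406458-104406657, plus strand: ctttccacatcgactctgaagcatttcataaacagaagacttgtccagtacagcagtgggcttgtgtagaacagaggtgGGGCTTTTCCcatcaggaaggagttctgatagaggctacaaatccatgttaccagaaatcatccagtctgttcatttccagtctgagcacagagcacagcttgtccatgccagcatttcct
Serpina3f, chr12:104214294-104214493, plus strand: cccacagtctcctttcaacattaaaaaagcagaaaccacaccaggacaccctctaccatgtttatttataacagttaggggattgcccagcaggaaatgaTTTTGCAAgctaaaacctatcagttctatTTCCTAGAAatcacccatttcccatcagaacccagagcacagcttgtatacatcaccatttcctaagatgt
Serpina3g, chr12:104235897-104236096, plus strand: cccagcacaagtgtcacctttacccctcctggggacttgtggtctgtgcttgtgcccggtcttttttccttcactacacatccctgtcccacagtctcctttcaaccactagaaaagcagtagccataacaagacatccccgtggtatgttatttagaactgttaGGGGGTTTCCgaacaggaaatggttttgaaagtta

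The windows of Serpina3c and Serpina3n were identical in 183 of 203 alignment columns (90.1%), while the other pairs among the 4 Serpina3 windows were identical in 47.0% to 60.8% of columns. Serpina3n held NF-kB letters 171 to 162 bases before its start, and the Serpina3c window held none of the 4 motifs. Saa3 held IRF letters at 125 to 116 and C/EBP letters at 99 to 92 bases before its start. Serpina3f held C/EBP letters at 150 to 143 and STAT letters at 121 to 113, and Serpina3g held NF-kB letters at 85 to 76. Of the windows not printed, that of a second annotated start of Serpina3f held a further C/EBP match at 111 to 104 bases before that start, that of Lcn2, which lies partly in exons, held C/EBP letters at 216 to 209, and the 3 of Il1rn held none. Among 32851 windows of this length, 8.11% held the C/EBP letters, 1.05% the NF-kB letters, 5.76% the STAT letters and 2.40% the IRF letters. A match is a description of these letters, not a binding site.

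Of 48903 barcodes, 45328 were kept as cells, with a median of 7711 UMIs in Control and 11351 in Fracture cells. Libraries held 56543151 to 89126291 UMIs, and library pairs shared 10 to 23 cell barcodes. Cells were grouped after integration of the 8 libraries, and the groups were named "X-like" from marker genes. The label of bone stromal cells was only partly met, since 2159 basophil-like, 2659 erythroid-like and, in the 4 preparations, 56, 30, 8 and 7 neutrophil lineage-like cells remained, most of them from Control preparations. Levels are given as CPM, the UMIs of a gene scaled to a fixed total of UMIs of all genes (counts per 1e+06), summed over the cells of 1 class in 1 preparation, in the order Control 1, Control 2, Fracture 1, Fracture 2. In such sums, fewer cells of a type and less RNA per cell cannot be told apart. Fold changes are log2 Fracture over Control with their standard error (SE) from edgeR's quasi-likelihood test over all genes, and a gene was called at a Benjamini-Hochberg adjusted p under 0.05. BMSC-like cells are the bone mesenchymal stromal cells, made up of dpMSC-like (diaphyseal) and mpMSC-like (metaphyseal) cells.

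Over all cells together, Saa3 stood at 1.29, 0.222, 46.4 and 72.4 CPM, higher in both Fracture preparations. Lcn2 stood at 19.3, 23.7, 21.9 and 24.0 CPM, and its groups overlapped. Hp stood at 371, 419, 84.7 and 115 CPM. Il1rn stood at 28.9, 42.9, 1.64 and 2.18 CPM, so that both of these genes were lower in every Fracture preparation. Serpina3c (4.06, 4.76, 0.192 and 0.159 CPM), Serpina3f (8.08, 16.4, 0.505 and 0.563 CPM) and Serpina3g (37.2, 71.8, 4.02 and 4.10 CPM) were also lower in both. Serpina3n went the other way, at 2.87, 1.46, 9.19 and 10.3 CPM. These totals mix classes whose cell numbers differed greatly between groups. The dpMSC-like class held 1698 and 1220 Control but 206 and 250 Fracture cells, and the chondrocyte-like class held 2070 and 679 Control but 6802 and 7122 Fracture cells.

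In dpMSC-like cells as clustered, the fracture comparison divided the genes. Saa3 was at 3.64 and 0.725 CPM in Control and at 2134 and 3129 CPM in Fracture preparations, whose libraries ranged from 1574 to 4696 CPM. Lcn2 was at 1.58 and 0.967 CPM in Control and at 21.6 and 122 CPM in Fracture preparations, and its 2 Fracture values lay far apart. Both rose, with log2 changes of 10.46 (SE 0.75, adjusted p = 0.000819) and 6.03 (SE 0.97, adjusted p = 0.00698). Both passed the filter on low counts only through their Fracture level, so they could only be called higher. Il1rn was at 392 and 452 CPM in Control against 50.02 and 83.9 CPM in Fracture preparations, and fell by 2.42 (SE 0.26, adjusted p = 0.00229). Serpina3g was at 400 and 663 against 82.4 and 87.7 CPM, and fell by 2.41 (SE 0.26, adjusted p = 0.00235). The other inhibitors that fell were Serpina3c (51.6 and 48.6 against 2.45 and 2.92 CPM) and Serpina3f (90.4 and 145 against 8.83 and 8.35 CPM). Hp was at 4728 and 4168 against 2099 and 3475 CPM and was not called (log2 change -0.44, SE 0.28, adjusted p = 0.260). Serpina3n was at 4.37 and 4.59 against 4.90 and 14.2 CPM and was not called either (1.35, SE 0.49, adjusted p = 0.0773). Thus 2 of the 8 tested genes were called higher and 4 lower, where 22.1% of all genes tested were called higher and 20.2% lower.

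**Figure D1:**
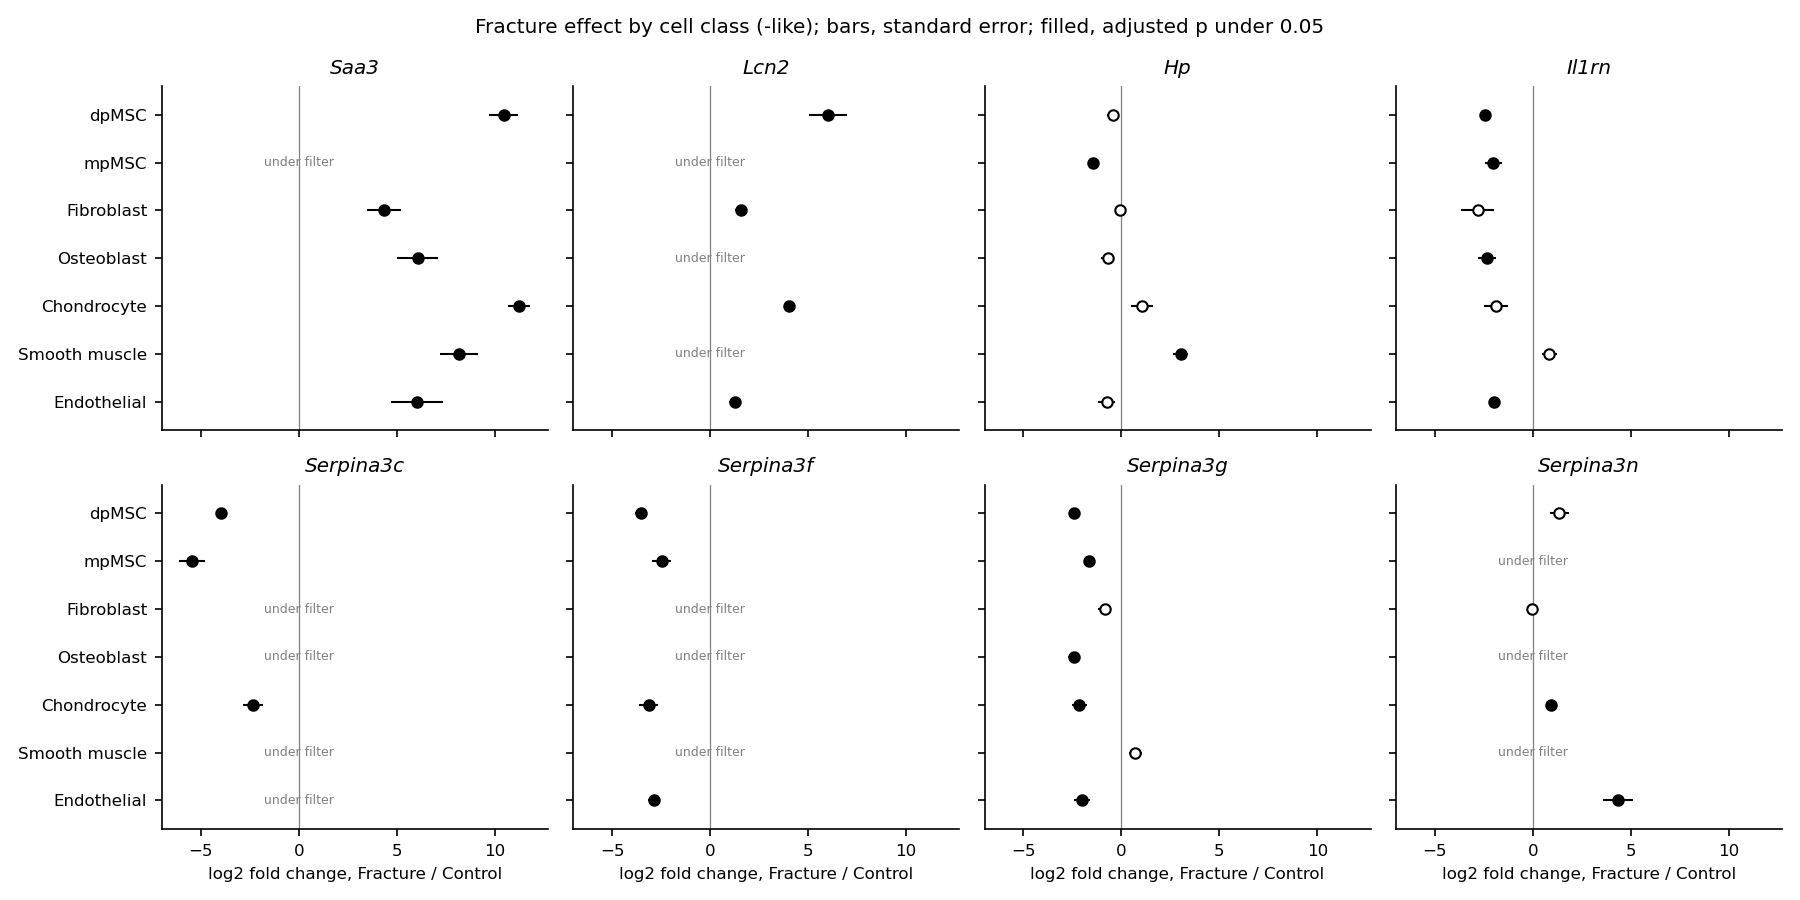
Log2 change of each gene, Fracture over Control, with bars of 1 SE, in 7 cell classes (filled points, adjusted p under 0.05 by edgeR; open points, not called). Saa3 lay above 0 in all 6 classes in which it was tested. It had 0, 1, 4 and 10 Control UMIs in chondrocyte-, endothelial-, osteoblast- and smooth muscle-like cells. There, and in dpMSC-like and fibroblast-like cells, it passed the filter on low counts only through Fracture. In mpMSC-like cells, with 76 Control and 13 Fracture UMIs, it was under that filter. Serpina3c, Serpina3f and Serpina3g lay below 0 in every drawn class in which they were tested, except Serpina3g in smooth muscle-like cells (0.71, not called). Osteoblast-, fibroblast- and smooth muscle-like cells were under the filter for Serpina3c and Serpina3f, and endothelial-like cells for Serpina3c. Serpina3c and Serpina3f in chondrocyte-like and mpMSC-like cells, and Il1rn and Serpina3g in osteoblast-like cells, passed the filter only through Control.

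The Fracture cells of that class did not carry its markers to the extent the Control cells did. The 7 markers of dpMSCs (Esm1, Adipoq, Lepr, Kitl, Cxcl12, Lpl and Gas6) took a median of 4.87% of the UMIs of a Control dpMSC-like cell but 0.234% of those of a Fracture dpMSC-like cell. Of the 206 and 250 Fracture cells, 137 and 148 had under 0.5% of their UMIs in these markers, against 4 and 0 Control cells. Clustering without integration of the libraries put 130 and 142 of these cells among the fibroblast-like cells and none among the dpMSC-like cells. The Fracture cluster was therefore divided by its marker share, a step chosen after the data had been seen, and 40 and 56 of its cells had 2% or more.

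Saa3 and Lcn2 lay in the cells that had few or none of the marker UMIs. In cells under 0.5%, Saa3 was at 2606 and 3106 CPM and Lcn2 at 27.6 and 115 CPM. In the 29 and 46 cells from 0.5% to 2%, Saa3 was at 968 and 6039 CPM. In the marker-bearing Fracture cells, 2% and over, Saa3 was at 0 and 3.0 CPM and no UMI of Lcn2 was counted in either preparation. Il1rn had the opposite distribution, at 13.2 and 29.6 CPM in cells under 0.5% and 264 and 285 CPM in marker-bearing cells. Serpina3g stood at 32.6 and 50.3 CPM in the former and 406 and 312 CPM in the latter. No UMI of Serpina3c was seen in cells under 0.5%, and it was at 16.7 and 12.0 CPM in marker-bearing cells, while Serpina3f was at 1.26 and 1.77 against 62.8 and 45.0 CPM. The sums of Hp were high in both kinds of cell, at 1795 and 3287 CPM under 0.5% and at 4203 and 3567 CPM in marker-bearing cells. Many cells under 0.5% had no Hp UMI, however, whereas all marker-bearing cells had some. Of the cells under 0.5%, 28 and 42 had 10 or more Saa3 UMIs, and the level of Hp in such cells is given below.

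When marker-bearing cells alone were compared (1651 and 1192 Control, 40 and 56 Fracture cells), none of the 7 genes tested was called, and 0% of the 12377 genes tested were called in all, although 2088 had an unadjusted p under 0.05. Il1rn was at 393 and 456 CPM in the Control cells, above both Fracture values given above, but the log2 change was -0.62 with adjusted p = 0.156. Serpina3c was at 51.9 and 49.0 CPM in Control and changed by -1.83 (adjusted p = 0.0859). Serpina3f (91.2 and 143 CPM in Control) changed by -1.13 (adjusted p = 0.188), and Serpina3g (401 and 666 CPM in Control), whose groups overlapped, by -0.57 (adjusted p = 0.371). With the limit set at 1% of UMIs, Il1rn (-0.87, adjusted p = 0.0444) and Serpina3c (-1.74, adjusted p = 0.0364) were called and the other 5 were not. At 2% the groups did not overlap for Il1rn, Serpina3c and Serpina3f, with Fracture sums of 63 and 95 UMIs, 4 and 4 UMIs, and 15 and 15 UMIs.

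**Figure D2:**
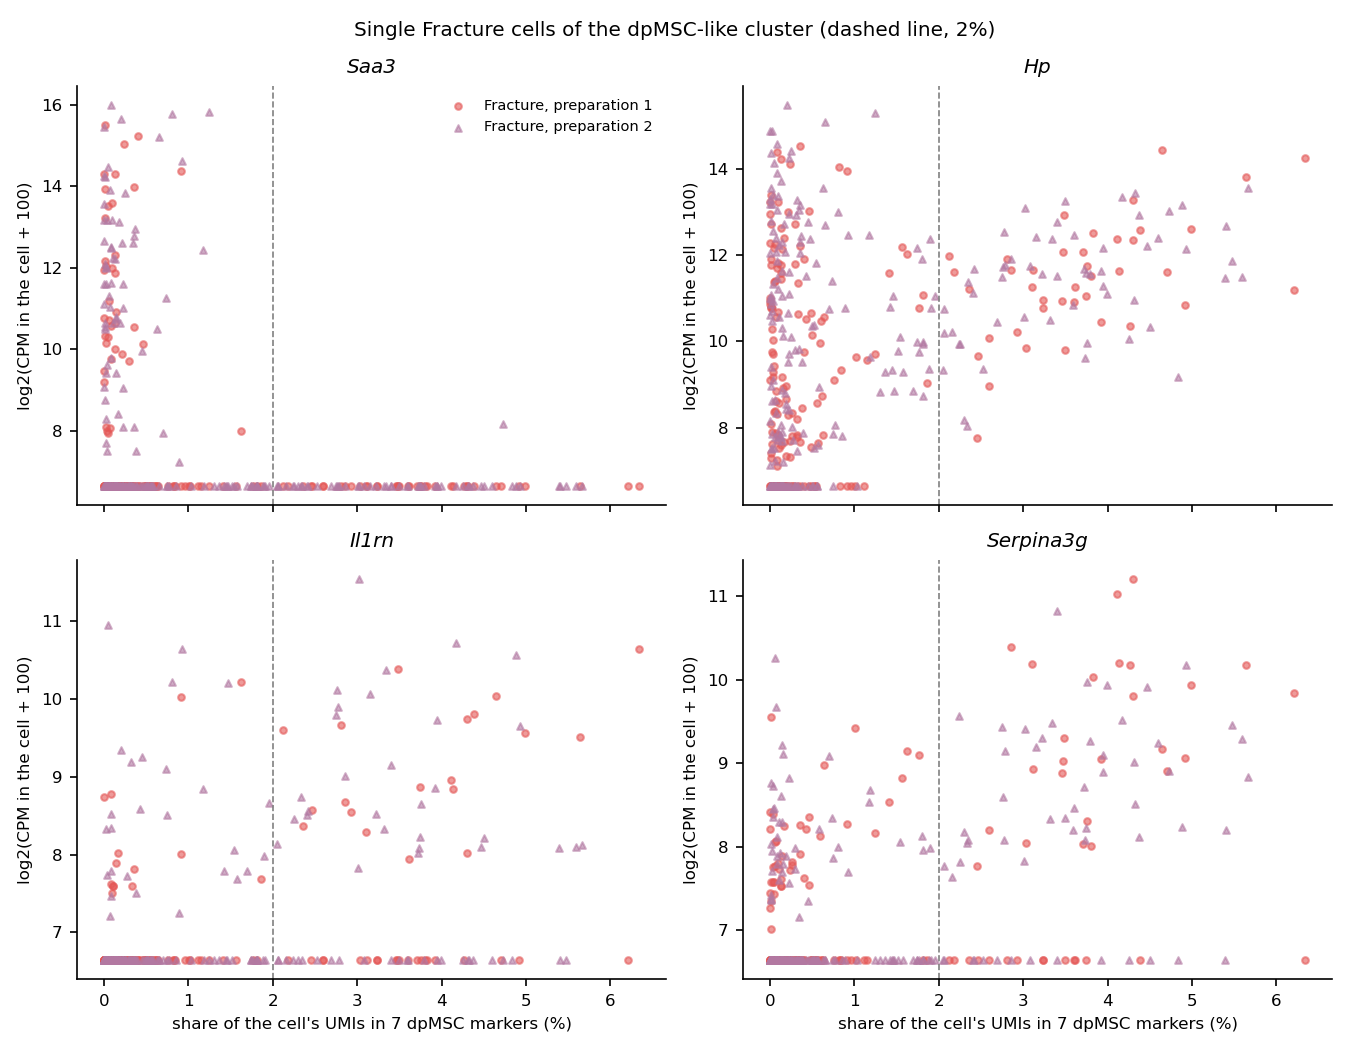
Single Fracture dpMSC-like cells of both preparations, with the share of UMIs in the 7 dpMSC markers (percent, horizontal axis) against the level in the cell as log2(CPM + 100) for Saa3, Hp, Il1rn and Serpina3g; the dashed line marks 2%. High Saa3 lay left of the line, where 137 and 148 cells had under 0.5%, whereas Il1rn, Serpina3g and Hp were found on both sides.

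Saa3 was concentrated in very few cells. In the Fracture preparations 53 and 87 cells had 10 or more Saa3 UMIs, a limit chosen after the values had been seen, and these 140 cells (0.568% of Fracture cells) held 96.7% of the 18338 Fracture Saa3 UMIs. Just under that limit, 16 and 11 cells had 5 to 9 UMIs, 12 and 24 cells had 2 to 4, and 140 and 179 cells had 1. Control preparations had 4 and 0 cells with 10 or more. The 140 cells had a median of 11467 and 13928 UMIs, against 11351 over all Fracture cells, and 1 of them was called a doublet. None had more than 1.24% of its UMIs in the dpMSC markers. In the integrated clustering 77 of them were dpMSC-like, 34 fibroblast-like, 10 chondrocyte-like, 9 smooth muscle-like, 6 osteoblast-like and 2 endothelial-like, with 1 in the blood cluster with stromal genes and 1 unnamed. Without integration 110 were fibroblast-like, 13 chondrocyte-like, 7 osteoblast-like, 7 smooth muscle-like, 2 endothelial-like and 1 mpMSC-like, and none was dpMSC-like.

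The same cells, 0.568% of Fracture cells, carried unequal parts of the other 7 genes. They held 40.4% of the Fracture UMIs of Hp, 22.01% of Il1rn, 15.5% of Lcn2, 9.56% of Serpina3g, 3.77% of Serpina3c, 3.07% of Serpina3f and 2.86% of Serpina3n. Within the dpMSC-like and fibroblast-like classes, Hp stood at 4642 and 6099 CPM in the 39 and 72 Saa3-high cells, against 234 and 265 CPM in the 1117 and 1255 others. Lcn2 stood at 69.8 and 418 CPM against 10.0 and 3.53 CPM, with its 2 values far apart, while over all 140 cells it stood at 570 and 568 CPM. At least 1 Hp UMI was present in 92.5% and 88.5% of the 140 cells, and at least 1 Lcn2 UMI in 32.1% and 36.8%, so that most Saa3-high cells had no Lcn2 UMI at this depth. Among all other Fracture cells, Hp was present in 12.5% and 13.5% and Lcn2 in 1.91% and 2.40%. Serpina3g was detected in 41.5% and 32.2% of the Saa3-high cells against 2.46% and 2.57% of the others. Il1rn was detected in 11.3% and 19.5% against 0.813% and 1.02%, and Serpina3n in 15.1% and 23.0% against 5.53% and 5.63%.

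Other genes were compared within the same 2 classes, without a test because the cells were chosen on Saa3, and ranked, after their values were seen, by the smaller of the 2 log2 differences among genes at 20 CPM or more. After Saa3, the first 9 were Cxcl5, Mmp10, Cxcl3, Tnfrsf9, Hp, Mmp3, Acpp, Prdm1 and Cryaa. The neutrophil attractant Cxcl5 was at 3092 and 2704 CPM in Saa3-high cells against 48.0 and 65.9 CPM in the others. Mmp3, a matrix metalloprotease, was at 3075 and 4811 against 168 and 196 CPM. Of the genes on the pathway lists, Il6, the cytokine that drives the liver acute phase response, ranked 18th at 39.6 and 79.3 against 3.36 and 3.10 CPM, and Slpi, an inhibitor of neutrophil elastase, ranked 21st at 460 and 496 against 54.0 and 60.4 CPM.

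The level of Saa3 in fibroblast-like, smooth muscle-like, chondrocyte-like and osteoblast-like cells rested largely on these few cells, which held 49 of the 104 Fracture UMIs in endothelial-like cells and none in mpMSC-like cells. In both Fracture preparations of the integrated clustering the order of Saa3 was dpMSC-like, smooth muscle-like and fibroblast-like, but not in every library. Without integration no Saa3-high cell was dpMSC-like, and the Fracture means were 586 CPM in fibroblast-like and 484 CPM in smooth muscle-like cells. The integrated order leaves out the blood cluster with stromal genes (Fracture mean 230 CPM, SD 323), where 1 cell held 329 of 334 UMIs. Fibroblast-like cells were at 10.1 and 0 CPM in Control and at 83.6 and 168 CPM in Fracture preparations, and Saa3 rose by 4.34 (SE 0.87, adjusted p = 0.0315). DESeq2 did not call Saa3 there (adjusted p = 0.145), nor did the fit without Fracture preparation 1 (adjusted p = 0.147) or 2 (adjusted p = 0.206), or without library 1 of Control preparation 1 (adjusted p = 0.0598). Without integration, which placed the Saa3-high cells in this class, Saa3 was at 23.5 and 0 CPM in Control and 446 and 727 CPM in Fracture fibroblast-like cells. Smooth muscle-like cells were at 2.76 and 0 against 251 and 881 CPM, a rise of 8.18 (SE 0.98, adjusted p = 0.00502), with 389 of 390 and 1379 of 1380 UMIs in 5 and 4 cells. All UMIs of Fracture preparation 2 were in its library 1, at 1574 CPM, and library 2 had 0, below the 105 CPM of its fibroblast-like cells. Without that library 1, Saa3 fell under the filter on low counts and was not tested. Chondrocyte-like cells had no Saa3 UMI in either Control preparation and 4.60 and 5.56 CPM in Fracture preparations, whose libraries ranged from 2.56 to 9.06 CPM. That was at least 71.7-fold higher when 3 UMIs over the Control group are taken as the floor, and the rise was called (adjusted p = 0.00375). It was not called without Fracture preparation 1 (adjusted p = 0.0541) or 2 (adjusted p = 0.0562). Osteoblast-like cells were at 0.0675 and 0.103 against 2.55 and 9.46 CPM (6.06, SE 1.03, adjusted p = 0.0275), and Saa3 was under the filter there without library 2 of Fracture preparation 1, which held 40 of its 44 UMIs. Endothelial-like cells had 1 Control UMI against 104 Fracture UMIs, and the call was lost without the library that held this UMI (adjusted p = 0.0565). mpMSC-like cells had 10.4 and 0.226 CPM in Control and 1.31 and 0.948 CPM in Fracture preparations, and Saa3 was below the filter on low counts. The Control 1 value rested on library 2, which held 66 of 75 UMIs (17.7 against 2.57 CPM in library 1). The Control 1 values of dpMSC-like and fibroblast-like cells rested likewise on 1 library each, with 29 of 30 and 33 of 33 UMIs.

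After every cell had been thinned to 1000 UMIs, the mean share of cells with a Saa3 UMI was 0.102% in Control and 17.1% in Fracture dpMSC-like cells, 0.119% and 2.06% in fibroblast-like cells and 0.0406% and 2.56% in smooth muscle-like cells. In chondrocyte-like cells it was 0% and 0.176%, close to the shares in erythroid-like cells (0% and 0.144%), which should lack the gene. Free RNA in the droplets can give such UMIs, and its part was not tested. With 2 preparations per group the smallest two-sided exact permutation p is 0.33, which all of these shares had.

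Lcn2 overlapped between the groups over all cells, but its sources differed. In Control preparations neutrophil lineage-like cells held 41.2% of its UMIs, basophil-like cells 28.3% and a blood cluster with stromal genes 26.2%, and chondrocyte-like cells held 1.31%. In Fracture preparations chondrocyte-like cells held 55.9% and neutrophil lineage-like cells 27.9%, the latter with 8 and 7 cells. In neutrophil lineage-like cells Lcn2 was at 6746 and 7393 CPM in Control and 16001 and 15119 CPM in Fracture preparations, too few cells for a test. In chondrocyte-like cells it was at 1.63 and 1.06 CPM in Control and 19.97 and 21.1 CPM in Fracture preparations, with no overlap, and it rose by 4.03 (SE 0.20, adjusted p = 0.00167). Lcn2 kept its call without Fracture preparation 1 (adjusted p = 0.0395) or 2 (adjusted p = 0.0394). After thinning to 1000 UMIs, 0.159% of Control and 0.691% of Fracture chondrocyte-like cells had Lcn2, against 0.00309% and 0.0541% of erythroid-like cells.

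Neutrophil transcripts were present in the same sums, and their part in the result was not tested. All 9 neutrophil markers had UMIs in chondrocyte-like cells of every preparation. Their summed level was 86.5 and 27.8 CPM in Control and 36.0 and 31.1 CPM in Fracture preparations, which overlapped, while S100a8 alone was at 1.20 and 1.38 against 11.04 and 11.4 CPM. Fracture chondrocyte-like cells held 1.81 and 1.85 Lcn2 UMIs per S100a8 UMI, against 0.130 and 0.0869 in the Fracture neutrophil lineage-like cells. In Control the ratios were 1.36 and 0.765 in chondrocyte-like and 0.0742 and 0.0759 in neutrophil lineage-like cells, so this difference between the classes was present in both groups. Of the 160 and 217 Fracture chondrocyte-like cells with Lcn2, 13 and 20 also had S100a8. In the cells without S100a8, Lcn2 was at 18.0 and 20.6 CPM. In Fracture dpMSC-like cells the 9 markers summed to 37.8 and 55.9 CPM, against 108 and 43.3 CPM in Control, with 7.33 and 13.2 Lcn2 UMIs per S100a8 UMI. Elane, Ltf and Ngp were at 0 there in Fracture preparation 1 and Ltf in Fracture preparation 2. Most Lcn2 UMIs of Fracture chondrocyte-like cells lay in 29 and 36 cells with 10 or more each, which held 1482 of 1772 and 1765 of 2138 UMIs, and of these 3 and 4 also had 10 or more Saa3 UMIs.

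**Figure D3:**
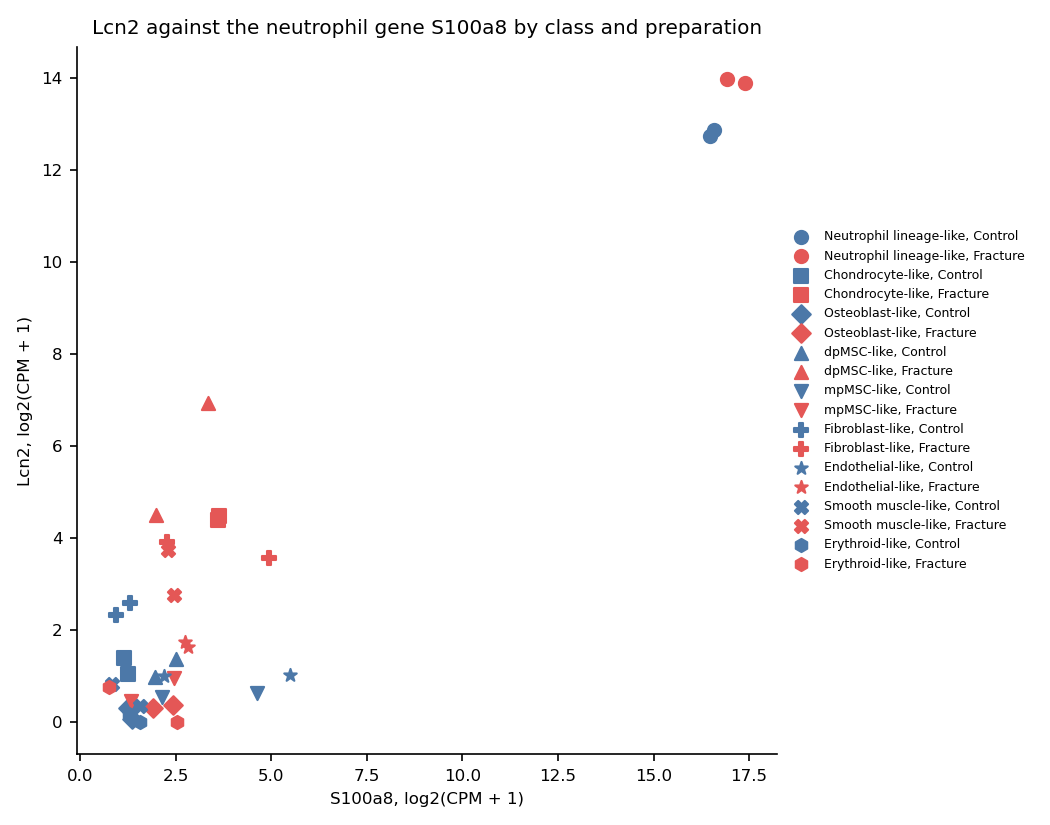
Lcn2 against the neutrophil gene S100a8, both as log2(CPM + 1), 1 point per cell class and preparation (blue Control, red Fracture). Neutrophil lineage-like cells lay at the upper right in both groups, and the Fracture chondrocyte-like and dpMSC-like sums lay at high Lcn2 for their S100a8, with 1.81 and 1.85 Lcn2 UMIs per S100a8 UMI in chondrocyte-like cells. Control chondrocyte-like cells held 1.36 and 0.765.

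Within the chondrocyte-like class the level of Lcn2 was uneven. The subcluster led by Chrdl2, Itgbl1 and Aspn was at 3.40 and 0.566 CPM in Control and at 41.0 and 38.7 CPM in Fracture preparations. The subcluster led by Col10a1, the collagen of hypertrophic cartilage, was at 0.629 and 0.386 against 2.17 and 3.73 CPM. The subcluster led by Serpina1a and Serpina1d was at 1.63 and 0.768 against 0.324 and 1.16 CPM, so that its groups overlapped. In a small subcluster led by haemoglobin genes (60 and 69 Fracture cells) Lcn2 was at 1.12 CPM in Fracture preparation 1 and 86.7 CPM in Fracture preparation 2. Saa3 was highest in the Chrdl2 subcluster in both Fracture preparations, at 9.11 and 10.6 CPM.

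Lcn2 was also called in fibroblast-like and endothelial-like cells. Fibroblast-like cells were at 3.98 and 5.03 CPM in Control and 10.8 and 14.1 CPM in Fracture preparations, a rise of 1.57 (SE 0.31, adjusted p = 0.0295), but without integration the change was -3.25 (adjusted p = 0.0654), and without any 1 of 5 of the 8 libraries it was not called (adjusted p from 0.0510 to 0.171), nor without Control preparation 1 (adjusted p = 0.0585). Endothelial-like cells were at 1.02 and 0.984 against 2.07 and 2.35 CPM, and Lcn2 rose by 1.26 (SE 0.29, adjusted p = 0.0319), which DESeq2 did not call (adjusted p = 0.192), nor did the fit without library 2 of Control preparation 1 (adjusted p = 0.0673) or library 1 of Control preparation 2 (adjusted p = 0.0554), or without Control preparation 1 (adjusted p = 0.0517) or 2 (adjusted p = 0.0506). Smooth muscle-like cells were at 0.276 and 0.771 against 12.2 and 5.74 CPM, from 2 Control and 28 Fracture UMIs. Osteoblast-like cells (0.236, 0.0513, 0.232 and 0.294 CPM) and mpMSC-like cells (0.554, 0.452, 0.375 and 0.948 CPM) overlapped between groups, and Lcn2 was below the filter in these 3 classes. Basophil-like cells were at 63.1 and 57.4 against 28.8 and 47.3 CPM and were not called (adjusted p = 0.354).

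Hp did not follow Saa3 across classes. In mpMSC-like cells it was at 442 and 490 CPM in Control and 164 and 146 CPM in Fracture preparations, and it fell by 1.46 (SE 0.10, adjusted p = 0.00278), also without either Fracture preparation (adjusted p = 0.0339 and 0.0419). In smooth muscle-like cells it was at 141 and 63.2 against 897 and 763 CPM, and it rose by 3.03 (SE 0.38, adjusted p = 0.00563). The rise was not called without Fracture preparation 1 (2.92, adjusted p = 0.0630). The libraries of Fracture preparation 1 were at 557 and 1167 CPM and those of Fracture preparation 2 at 1178 and 236 CPM, all above the Control libraries. Without library 1 of Fracture preparation 2 the change was 2.49 (adjusted p = 0.0488). Cells of that class with UMIs of Myh11, a smooth muscle myosin, had Hp at 143 and 61.8 CPM in Control and 986 and 600 CPM in Fracture preparations. Cells without Myh11 had Hp at 30.4 and 97.7 against 674 and 1371 CPM. They were 22 of 731 and 11 of 213 Control cells, but 47 of 170 and 36 of 167 Fracture cells, so the make-up of the class differed between groups. Fibroblast-like cells (103, 137, 96.9 and 124 CPM), chondrocyte-like cells (39.3, 13.1, 38.2 and 58.9 CPM) and osteoblast-like cells (18.7, 9.65, 10.9 and 7.60 CPM) overlapped between groups and were not called, although with called doublets removed Hp was called in chondrocyte-like cells (1.64, adjusted p = 0.0266). In fibroblast-like cells the 2 libraries of Control preparation 2 were far apart, at 11.4 and 263 CPM. Endothelial-like cells were at 60.5 and 37.5 against 36.7 and 16.8 CPM and were not called (adjusted p = 0.229), except without library 2 of Fracture preparation 1 (-1.38, adjusted p = 0.0205). The order of Hp levels in Control was dpMSC-like, neutrophil lineage-like (2036 and 1699 CPM), then mpMSC-like and the blood cluster with stromal genes (422 and 959 CPM), which overlapped, and fibroblast-like and smooth muscle-like cells, which overlapped too, the former with the uneven libraries just given.

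UMIs of Hp, Il1rn and Serpina3g were also found in Control erythroid-like cells, a class that should lack them. After thinning to 1000 UMIs, Hp was found in 1.61% of Control and 0.405% of Fracture erythroid-like cells, and in 1.90% and 1.63% of chondrocyte-like cells. Il1rn was found in 0.121% and 0% of erythroid-like cells and in 0.153% and 0.05002% of chondrocyte-like cells. Serpina3g was found in 0.287% and 0% of erythroid-like cells and in 0.306% and 0.0510% of chondrocyte-like cells. The Control shares in chondrocyte-like cells were thus close to those in erythroid-like cells, although the mean Control levels were 26.2 against 7.34 CPM for Hp, 1.81 against 0.806 CPM for Il1rn and 2.45 against 1.81 CPM for Serpina3g. Free RNA was not measured, and its part in the differences was not tested.

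Il1rn lay mainly in dpMSC-like cells in Control, where that class held 89.6% of its UMIs. By mean Control level, neutrophil lineage-like cells stood above the blood cluster with stromal genes (mean 62.8 CPM). The values of that cluster lay far apart, so this order need not hold in each Control preparation. Both lay below the dpMSC-like class. Beyond it, mpMSC-like cells were at 11.6 and 19.2 CPM in Control and 4.68 and 2.21 CPM in Fracture preparations, a fall of 2.03 (SE 0.43, adjusted p = 0.0242) that was lost without Fracture preparation 1 (adjusted p = 0.0624) or 2 (adjusted p = 0.105). Endothelial-like cells were at 5.87 and 5.17 against 1.44 and 1.17 CPM, and Il1rn fell by 1.96 (SE 0.25, adjusted p = 0.00938), but by 0.54 (adjusted p = 0.294) once called doublets had been removed. Osteoblast-like cells were at 1.25 and 0.770 against 0.174 and 0.245 CPM, and Il1rn fell by 2.32 (SE 0.46, adjusted p = 0.0375), which DESeq2 did not call (adjusted p = 0.0683). Smooth muscle-like cells stood apart at 12.2 and 5.39 against 16.1 and 17.9 CPM, higher in both Fracture preparations but not called (0.85, SE 0.40, adjusted p = 0.174). Each Fracture value rested on 1 library, with libraries at 5.82 and 24.2 CPM in preparation 1 and 30.8 and 1.45 CPM in preparation 2. Neutrophil lineage-like cells had 196 and 83.4 CPM in Control and 0 and 16.3 CPM in Fracture preparations. Chondrocyte-like cells (2.90, 0.732, 0.383 and 0.621 CPM) and fibroblast-like cells (19.9, 1.44, 1.59 and 1.95 CPM) were not called by edgeR.

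Serpina3c, Serpina3f and Serpina3g shared the dpMSC-like class as their main source in Control, which held 85.0%, 74.8% and 75.8% of their UMIs. Elsewhere in Control, Serpina3c was at a mean of 7.16 CPM (19 UMIs) in the blood cluster with stromal genes, at 4.84 and 5.19 CPM in mpMSC-like cells and at a mean under 1 CPM in the other classes. In mpMSC-like cells 58 Control UMIs stood against 1 Fracture UMI and the fall was called (adjusted p = 0.00719), but not without Fracture preparation 2 (adjusted p = 0.0544). Serpina3f and Serpina3g had a further source in endothelial-like cells. There Serpina3f was at 18.6 and 30.7 CPM in Control and 3.06 and 3.08 CPM in Fracture preparations, and fell by 2.88 (SE 0.30, adjusted p = 0.00694). Serpina3g was at 35.8 and 76.1 against 11.6 and 13.9 CPM, and fell by 2.01 (SE 0.40, adjusted p = 0.0227). Both calls were lost without Fracture preparation 1 (adjusted p = 0.107 and 0.174) or 2 (adjusted p = 0.0965 and 0.141). Between Control and Fracture, endothelial-like cells went from 16.0% to 46.6% of Serpina3f UMIs and from 8.08% to 25.9% of Serpina3g UMIs.

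In mpMSC-like cells Serpina3g was at 43.9 and 70.0 CPM in Control and 16.1 and 17.1 CPM in Fracture preparations, a fall of 1.64 (SE 0.25, adjusted p = 0.0111), and Serpina3f was at 5.26 and 9.93 against 0.937 and 1.42 CPM, a fall of 2.47 (SE 0.49, adjusted p = 0.0206). Neither was called without Fracture preparation 1 (adjusted p = 0.0796 and 0.110) or 2 (adjusted p = 0.0750 and 0.0890). Smooth muscle-like cells had Serpina3g at 9.39 and 12.3 against 19.9 and 14.0 CPM, which was higher in both Fracture preparations and not called (0.71, SE 0.32, adjusted p = 0.162). Its libraries overlapped between groups, at 9.68, 9.09, 5.53 and 20.9 CPM in Control and 8.73, 28.9, 18.2 and 8.70 CPM in Fracture. In chondrocyte-like cells Serpina3c, Serpina3f and Serpina3g were called lower at levels under 4 CPM in every preparation, and none of these 3 calls held without Fracture preparation 1 (adjusted p = 0.141, 0.128 and 0.149) or 2 (adjusted p = 0.217, 0.0973 and 0.149). Without Control preparation 1, Serpina3c was not called either (adjusted p = 0.206). In osteoblast-like cells Serpina3g was lower (1.82 and 1.80 against 0.406 and 0.294 CPM, adjusted p = 0.0143). Megakaryocyte-like cells were another Control source of Serpina3g, at 29.1 and 22.2 CPM.

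Serpina3n, the paralogue usually taken as the mouse counterpart of antichymotrypsin, was distributed unlike the other 3. Chondrocyte-like cells held 69.0% of its UMIs in Control and 85.6% in Fracture preparations. Its level there was 8.98 and 6.50 CPM in Control and 12.6 and 14.1 CPM in Fracture preparations, and it rose by 0.92 (SE 0.17, adjusted p = 0.0206), a call lost without Fracture preparation 1 (adjusted p = 0.107) or 2 (adjusted p = 0.135). Values of Serpina3n were uneven among subclusters, whose cell numbers also changed. The Chrdl2 subcluster held 482 and 117 Control but 3031 and 3245 Fracture cells, and the Serpina1a-led one held 1038 and 344 against 862 and 908. The part of this change of make-up in the class level was not tested. In the Chrdl2 subcluster Serpina3n was at 24.1 and 18.1 against 16.0 and 19.0 CPM, which overlapped. In the subcluster led by Serpina1a it was at 5.56 and 7.06 against 23.2 and 26.9 CPM, and in the cycling subcluster led by Pbk and Top2a at 6.76 and 0.875 against 26.6 and 24.98 CPM. In the Col10a1 subcluster it was at 0.419 and 0.386 against 2.27 and 1.66 CPM.

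Serpina3n also rose in endothelial-like cells, from 0.452 and 0 CPM to 3.69 and 5.43 CPM (4.34, SE 0.75, adjusted p = 0.0167), where Serpina3f and Serpina3g fell. That call too was lost without Fracture preparation 1 (adjusted p = 0.124) or 2 (adjusted p = 0.134). Fibroblast-like cells were at 11.3, 10.1, 11 and 9.54 CPM, which overlapped, above the dpMSC-like cells in all preparations but Fracture 2, where dpMSC-like cells were at 14.2 CPM. After thinning, the share of cells with Serpina3n went from 0.808% to 1.27% in chondrocyte-like and from 0.0137% to 0.349% in endothelial-like cells, against 0.0323% and 0.0560% in erythroid-like cells.

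**Figure D4:**
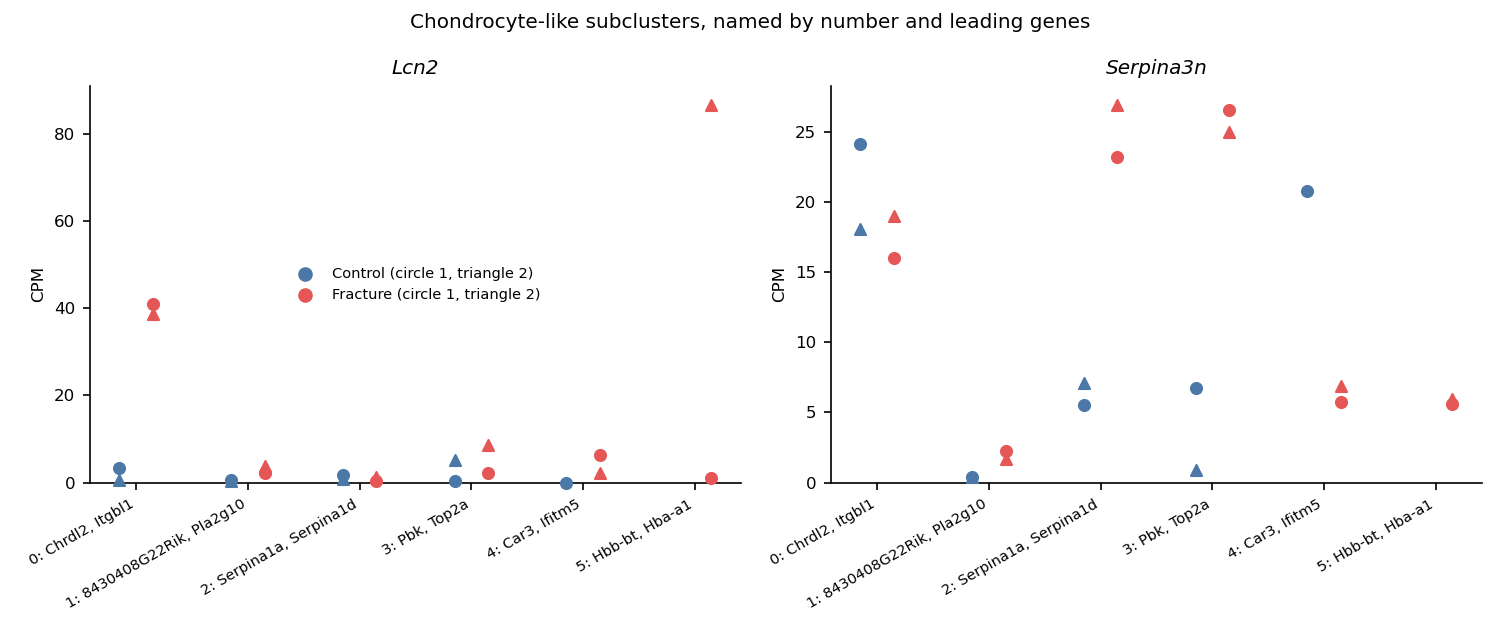
CPM of Lcn2 and Serpina3n in subclusters of chondrocyte-like cells, named by their leading genes, 1 point per preparation with at least 20 cells (blue Control, red Fracture). Lcn2 was high in the Fracture cells of the Chrdl2 subcluster (41.0 and 38.7 CPM), and Serpina3n was higher in Fracture cells of the Serpina1a-led subcluster (23.2 and 26.9 CPM against 5.56 and 7.06 CPM).

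Counted by class, chondrocyte-like cells had all 8 genes tested, with Saa3, Lcn2 and Serpina3n called higher and Serpina3c, Serpina3f and Serpina3g lower, where 19% of all genes tested were called higher and 18.1% lower. In BMSC-like cells Saa3 and Lcn2 were called higher and Hp, Il1rn, Serpina3c, Serpina3f and Serpina3g lower, 7 of 8, where 24.1% of genes were called higher and 24.1% lower. All 5 genes tested in mpMSC-like cells were called lower and 0 higher (background 15.3% lower and 16.6% higher). Fibroblast-like cells had 2 of 6 called, Saa3 and Lcn2, both higher, where 9.83% of genes were higher and 10.1% lower. Endothelial-like cells had Saa3, Lcn2 and Serpina3n higher and Il1rn, Serpina3f and Serpina3g lower of 7 tested, where 19% were higher and 17.3% lower. Smooth muscle-like cells had Hp and Saa3 higher and none lower of 4 tested (14.4% and 12.8%), and osteoblast-like cells had Saa3 higher and Il1rn and Serpina3g lower of 4 tested (9.23% and 5.97%). A gene absent from Control, or scarce there, could pass the filter on low counts only through its Fracture level, so it could only be called higher. Among these were Saa3 in chondrocyte-like (0 Control and 972 Fracture UMIs), endothelial-like (1 and 104), osteoblast-like (4 and 237) and smooth muscle-like cells (10 and 1770). Saa3 in fibroblast-like (33 and 3047) and dpMSC-like cells (36 and 11845) also passed only through Fracture, as did Lcn2 in dpMSC-like cells (21 and 335). So did Saa3 (112 and 11858) and Lcn2 (27 and 343) in BMSC-like cells. Serpina3n in endothelial-like cells (4 and 115) was another such gene. In the other direction, a gene scarce in Fracture could pass only through Control, so it could only be called lower. These were Serpina3c (58 and 1) and Serpina3f (82 and 14) in mpMSC-like cells and Serpina3c in BMSC-like cells (885 and 13). Others were Serpina3c (22 and 17) and Serpina3f (32 and 14) in chondrocyte-like cells, and Il1rn (52 and 8) and Serpina3g (89 and 13) in osteoblast-like cells. In erythroid-like (1 tested) and basophil-like cells (3 tested) edgeR called none, and Hp in basophil-like cells alone had an unadjusted p under 0.05 (0.00546). Without Fracture preparation 1 or 2 no gene at all was called in osteoblast-like or endothelial-like cells, and neither Saa3 (adjusted p = 0.147 and 0.206) nor Lcn2 (adjusted p = 0.168 and 0.262) in fibroblast-like cells. In BMSC-like cells Saa3 was not called without Fracture preparation 1 (adjusted p = 0.0544) or 2 (adjusted p = 0.0534), and Hp (adjusted p = 0.0575) and Serpina3g (adjusted p = 0.0520) were not called without Fracture preparation 1. Without integration the change of Saa3 in BMSC-like cells turned to -0.41. Of the 37 calls in these classes and dpMSC-like cells, 12 were lost without at least 1 of the 8 libraries. Beyond those given above, these were Il1rn in osteoblast-like (3 libraries), mpMSC-like and endothelial-like cells (1 each) and Serpina3c (2), Serpina3f (1) and Serpina3n (1) in chondrocyte-like cells, of which Serpina3c and Serpina3f had fallen under the filter without library 1 of Control preparation 2.

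Because the dpMSC-like and fibroblast-like borders decided where the Saa3-high cells fell, BMSC-like and fibroblast-like cells were also summed together, a step chosen after seeing the data. All 8 genes were then called, where 51.1% of genes were called in either direction. Saa3 (6.77, SE 1.29, adjusted p = 0.0150), Lcn2 (3.70, SE 0.56, adjusted p = 0.00848) and Serpina3n (1.11, SE 0.16, adjusted p = 0.00731) were higher in Fracture. Hp fell by 2.28, Il1rn by 4.31, Serpina3c by 6.01, Serpina3f by 5.06 and Serpina3g by 3.91. In this sum the loss of marker-bearing dpMSC-like cells and a lower level in each cell cannot be told apart.

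The change in another class was also compared with that in BMSC-like cells by an interaction term in edgeR. Of the 8 genes, 2 differed for chondrocyte-like cells (42.8% of all genes tested differed), 2 for osteoblast-like cells (34%), 4 for fibroblast-like cells (17.6%), 5 for endothelial-like cells (22.5%) and 4 for smooth muscle-like cells (17.3%). Some were under the filter on low counts in the class itself and entered only through their level in BMSC-like cells. These were Lcn2 and Serpina3c in osteoblast-like cells, Serpina3f in fibroblast-like cells, and Serpina3c in endothelial-like and smooth muscle-like cells. Without them the counts were 2, 0, 3, 4 and 3. Of these, Serpina3c in chondrocyte-like cells did not differ by the test without Fracture preparation 1 (2.19, adjusted p = 0.143), where Lcn2 did (-1.24, adjusted p = 0.0364), nor Saa3 in fibroblast-like cells without Control preparation 1 (2.74, adjusted p = 0.861). In smooth muscle-like cells the change was more positive than in BMSC-like cells by 4.60 for Hp and by 4.13 for Il1rn. In endothelial-like cells it was more positive by 4.23 for Serpina3n, but the calls there of Serpina3n (adjusted p = 0.0879 and 0.0664), Il1rn (adjusted p = 0.284 and 0.111) and Serpina3f (adjusted p = 0.0852 and 0.0868) were lost without Fracture preparation 1 or 2. These differences include the mixed make-up of the Fracture dpMSC-like cells.

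Genes of the same pathways, from lists drawn up with earlier results of these data known, are given by their counts. Over all genes tested, 24.1% were called higher and 24.1% lower in BMSC-like cells, 19% and 18.1% in chondrocyte-like cells, and 9.23% and 5.97% in osteoblast-like cells. The BMSC-like sums held 1698 and 1220 Control but 206 and 250 Fracture dpMSC-like cells. In the BMSC-like values that follow, the loss of such cells and a lower level in each cell cannot be told apart. Of 23 other acute phase genes, 12 were tested in BMSC-like cells, 1 was higher and 7 were lower, with a median log2 change of -1.35. Among them A2m, a broad protease trap, was at 238 and 332 CPM in Control and 33.5 and 40.9 CPM in Fracture preparations, and Lbp, which carries bacterial lipopolysaccharide, was at 262 and 320 against 37.3 and 51.4 CPM. In chondrocyte-like cells 13 were tested, 5 were higher and 1 was lower, with a median of 0.91. Cp, the copper-carrying ferroxidase ceruloplasmin, was at 25.9 and 28.2 against 73.3 and 79.0 CPM there, and fell in BMSC-like cells from 912 and 939 to 258 and 294 CPM. The median over all genes tested was -0.03 in BMSC-like and -0.01 in chondrocyte-like cells.

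Of 19 other Serpina genes, 6 were tested in chondrocyte-like cells and 5 were lower, all of them Serpina1 paralogues, which are near-identical copies that counting could split. Serpina1a, an alpha-1-antitrypsin gene, was at 695 and 1024 CPM in Control and 62.2 and 63.2 CPM in Fracture preparations. Of 24 other protease inhibitors, 20 were tested in chondrocyte-like cells, 6 were higher and 4 lower, with a median log2 change of 0.22, against 19% and 18.1% of all genes. Slpi was at 11.3 and 6.99 against 195 and 208 CPM in chondrocyte-like cells and at 10.3 and 3.39 against 54.9 and 74.7 CPM in BMSC-like cells. Serping1, the C1 inhibitor of complement, was at 2003 and 2153 against 339 and 435 CPM in BMSC-like cells.

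Upstream regulators were described in the same way. Of 14 regulators of the interleukin-6, NF-kB and interferon pathways, all were tested in BMSC-like cells, 4 were higher and 8 lower, with a median log2 change of -0.43, against 24.1% in each direction for all genes. In osteoblast-like cells 8 were higher and none lower, with a median of 0.89, against 9.23% and 5.97% of all genes. Socs3, a feedback inhibitor induced by STAT3, was at 44.8 and 48.2 CPM in Control and 452 and 391 CPM in Fracture osteoblast-like cells. Cebpa was at 172 and 163 against 33.6 and 31.0 CPM in BMSC-like cells. Nfkbia, an NF-kB target that inhibits it, was at 108 and 93.0 against 338 and 328 CPM in chondrocyte-like cells. Of 21 cytokines and receptors, 15 were tested in BMSC-like cells, 2 were higher and 8 lower, and Il1r1, the receptor that Il1rn blocks, was at 141 and 167 against 33.7 and 36.3 CPM. Of 16 receptors and target proteases, 11 were tested in chondrocyte-like cells, 2 were higher and 5 lower, and Slc22a17, a receptor for lipocalin 2, was at 27.5 and 23.8 against 15.9 and 14.7 CPM.

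Likeness across 43 sums of classes and preparations (13 classes) was taken as Pearson's r of log2(CPM + 1) over 6999 genes, with no test because the sums share libraries. Hp and Il1rn were each other's nearest gene (r = 0.914). Saa3 was most like Actg2 (0.837), Lrrc15 (0.817) and Mmp3 (0.786), and Lcn2 was most like Cxcl2 (0.920), with r = 0.196 between Saa3 and Lcn2. Serpina3c was most like Adipoq (0.889), and Serpina3f most like Sult1a1 (0.894). Serpina3g was most like Rab9 (0.842), and Serpina3n most like Fbln7 (0.910). Among the paralogues r was 0.812 for Serpina3c and Serpina3f and 0.855 for Serpina3f and Serpina3g, but 0.252 for Serpina3c and Serpina3n, the pair whose upstream windows were 90.1% identical.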

How the data were processed

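The deposited files were tables of whole-number UMI counts per gene and barcode for 8 libraries, which the authors had made from 10x 3' reads. The processing notes name bcl2fastq 2.19.1.403, UMI-tools 1.0.0, STAR 2.7.3a, featureCounts 1.6.4 and mm10, the study's methods name STARsolo and EmptyDrops, and which made the counts was not settled. Control tables reached down to 1 UMI per barcode and Fracture tables to 1929. Cells with 500 to 6000 genes and at most 25% mitochondrial UMIs were kept and integrated and clustered in Seurat 5.3.0. Scrublet in scanpy 1.11.5 called 718 doublets (1.58%), which stayed in and were removed as an alternative. Counts were summed per preparation and class (20 cells or more) and tested in edgeR 4.0.16 (TMM scaling, filterByExpr, quasi-likelihood) with DESeq2 1.42.0 as an alternative. In simulated data the edgeR fit recovered, by class, 1% to 9% of log2 changes of size 1 and 57.6% to 89% of those of size 2. A gene that was not called may therefore still have changed. Without TMM, the median of all genes moved by -0.15 in chondrocyte-like, -0.19 in BMSC-like, -0.24 in dpMSC-like, -0.13 in mpMSC-like and -0.12 in endothelial-like cells. The share of calls that were higher moved from 51.2% to 32.7%, 50.0% to 34.4%, 52.2% to 34.7%, 51.9% to 34.7% and 52.3% to 38.7% in these classes, and from 60.7% to 72.0% in osteoblast-like cells. The genes named from the pathway lists came from up to 3 per list and class with the largest log2 change among those called at a mean of 20 CPM or more, or any called where 5 or fewer were. The members and lists were chosen with earlier results of these data known. Floors (3 UMIs) cover counting error only.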

Additional observations from a re-analysis of the deposited data

Results flagged for a closer look

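The values here were picked out because the fracture change in a class differed from that in BMSC-like cells by an interaction term in edgeR (adjusted p under 0.05 over all genes). Each is the log2 change in the class minus that in BMSC-like cells. In chondrocyte-like cells the difference was 2.60 for Hp and 2.73 for Serpina3c, the latter not called without Fracture preparation 1 (2.19, adjusted p = 0.143). In osteoblast-like cells it was -3.93 for Lcn2 and 4.28 for Serpina3c, both under the filter on low counts in that class (8 and 10 UMIs of Lcn2, 24 and 11 of Serpina3c, in Control and Fracture), so that they were tested only through BMSC-like cells. In fibroblast-like cells it was 1.49 for Hp, -3.23 for Saa3, 3.27 for Serpina3f and 2.06 for Serpina3g. Serpina3f was under the filter there (5 and 13 UMIs), and the difference for Saa3 turned to 6.28 without integration and to 2.74 without Control preparation 1. In endothelial-like cells it was 1.45 for Il1rn, 4.44 for Serpina3c, 1.44 for Serpina3f, 1.12 for Serpina3g and 4.23 for Serpina3n, with Serpina3c under the filter (6 and 5 UMIs), and only the call of Serpina3g held without either Fracture preparation. In smooth muscle-like cells it was 4.60 for Hp, 4.13 for Il1rn, 6.27 for Serpina3c and 3.66 for Serpina3g, with Serpina3c under the filter (2 and 3 UMIs). All 5 comparisons share the BMSC-like sums, whose Fracture cells include the dpMSC-like cells with few marker UMIs, and that part was not tested.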

How the results depend on the processing

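Of 369 log2 changes under alternatives that kept all libraries, 321 kept direction and call, 26 lost and 7 gained the call, and 15 reversed. The replicate numbers did not pair the samples (correlations of deviations from -0.0394 to 0.0723). With the number as a block, 1 gene was called in osteoblast-like cells (3 without the block) and 1 in fibroblast-like cells (2 without). The genes called in dpMSC-like cells went from 6 to 2, 0 and 0 with markers at 1%, 2% and 3%, and at 2% the share of all genes called was 0%. In fibroblast-like cells DESeq2 called 1, resolution 0.2 called 1, and clustering without integration 4. The counts of differing changes were 5 with doublets removed and 5 without integration in chondrocyte-like cells (2 in the report), 4 and 4 in osteoblast-like cells (2), and 2 in fibroblast-like cells without integration (4).

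Reversed log2 changes with doublets removed were those of Hp, 0.10 in osteoblast-like, 0.17 in fibroblast-like and 0.40 in endothelial-like cells. Without integration they were -0.41 (Saa3) and -3.13 (Serpina3n) in BMSC-like cells and 0.67 (Hp) and -3.25 (Lcn2) in fibroblast-like cells, and the differences of effect became 0.42 (Lcn2, osteoblast-like) and 6.28 (Saa3, fibroblast-like). In marker-bearing dpMSC-like cells they were -0.32 (Saa3) and -1.33 (Serpina3n) at 2%, and 0.086 (Hp) and -7.07 (Serpina3n) at 3%. In fibroblast-like cells Hp was 0.032 without the filter and 0.29 at resolution 0.2, and Serpina3n 0.044 and 0.16. Mean levels without integration were 586 CPM (Saa3, Fracture fibroblast-like), 0.864 CPM (Lcn2, Control chondrocyte-like), 670 CPM (Hp, Fracture smooth muscle-like) and 3.05 CPM (Serpina3f, Fracture endothelial-like). The cause of these changes was not tested, and the marker and summed-class alternatives were chosen after seeing the data.

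With 1 preparation left out, the lone sample being assumed to vary like the others, genes called ranged from 4 to 7 in BMSC-like, 1 to 7 in chondrocyte-like, 0 to 6 in endothelial-like, 0 to 3 in fibroblast-like, 0 to 4 in osteoblast-like, 1 to 3 in smooth muscle-like, 6 to 8 in dpMSC-like and 1 to 6 in mpMSC-like cells. With 1 of the 8 libraries left out, chosen after seeing the data, 1 to 3 genes were called in fibroblast-like, 1 to 3 in osteoblast-like and 1 to 3 in smooth muscle-like cells. With a preparation left out, differences of effect ranged from 2 to 6 in chondrocyte-like, 1 to 5 in endothelial-like, 4 to 5 in fibroblast-like, 1 to 4 in osteoblast-like and 3 to 5 in smooth muscle-like cells. Log2 changes that turned ranged from -0.88 to 0.74 (Serpina3n, BMSC-like), and in fibroblast-like cells from -0.65 to 0.82 (Hp, over preparations and libraries left out), -3.44 to 0.40 (Il1rn) and -0.27 to 0.13 (Serpina3n, likewise), and the difference of effect of Saa3 there from -3.44 to 2.74. With a preparation left out, the numbers of all genes called or differing moved as well, to none called in osteoblast-like and endothelial-like cells without either Fracture preparation. The ranges above are therefore not particular to the 8 genes. Sums of neutrophil lineage-like and marker-bearing dpMSC-like Fracture cells rested on 7 to 56 cells.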
